A study of Mus musculus with 2 samples.

Results

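Pericytes, the mural cells that wrap capillaries, were picked out of single-cell RNA sequencing data of mouse plantaris muscle and compared between muscle after tenotomy and sham muscle. Cells were selected on their own transcripts: a cell was chosen by holding at least 3 unique molecular identifiers (UMIs, single counted transcripts) of the potassium channel genes Kcnj8 and Abcc9, Higd1b and Rgs5 summed. It also had to hold fewer than 3 UMIs of the smooth muscle myosin gene Myh11, at most 1 of the leukocyte gene Ptprc, at most 1 of the endothelial genes Pecam1 and Cdh5 together and at most 1 of the mesenchymal gene Pdgfra. This selected 175 of 7738 sham cells and 110 of 11237 tenotomy cells, 285 of 18975 cells in all. Cells entered with at least 500 UMIs, at least 300 detected genes and at most 10% mitochondrial UMIs.

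The study cut a tendon on 1 side in 5 male C57BL/6 mice aged 12 weeks, and used the plantaris of the other leg as the sham control. On day 4 the 5 muscles of each group were pooled, freed with collagenase type II, sorted for living cells as positive for Calcein AM and negative for PI, and made into 1 Chromium 3′ library. Each group is thus 1 library from pooled animals. No test between groups was possible, and the treatment and the library cannot be told apart. All intervals below are 95% intervals of the counting error only. The files do not tie cells to mice, and the labels name no tendon.

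Pericytes share a basement membrane with the endothelial tube, are recruited by platelet-derived growth factor from the endothelium through the receptor Pdgfrb, and are kept in place by Notch3 signalling. In skeletal muscle they set capillary tone through the channel formed by Kcnj8 and Abcc9 and through endothelin, adrenergic and nitric oxide pathways. After injury, mural and other stromal cells can deposit matrix and secrete cytokines.

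The 4 selecting genes varied widely among the selected cells. Their summed count had a median of 38 UMIs per selected sham cell and 27.5 per tenotomy cell, and reached 247 and 123. Just below the limit, at a sum of 2, lay 51 sham and 16 tenotomy cells. Just inside it, at a sum of 3, lay 20 and 4. A UMI of any of 8 other pericyte genes (Pdgfrb, Cspg4, Notch3, Rgs4, Ndufa4l2, Vtn, Cox4i2 and Mcam) was present in 56.9% of sham cells at a sum of 2 and in 55.0% at a sum of 3. In tenotomy such a UMI was present in 62.5% of cells at a sum of 2, in 0 of 4 at a sum of 3 and in 5 of 13 at a sum of 4. Where the sum was at least 10, 94.6% of 111 sham and 95.1% of 82 tenotomy cells held such a UMI. No UMI of the 8 genes was found in 33 selected sham and 21 selected tenotomy cells. In cells with at least 3 Ptprc UMIs, which should lack these genes, 4 of 234 in sham and 31 of 2756 in tenotomy reached the marker limit. The limit on Pecam1 and Cdh5 removed the most candidates: 997 of 1209 sham cells and 398 of 556 tenotomy cells that reached the marker limit. No selected barcode was selected in both libraries, 33 barcode sequences occurred in both files, and 2 selected cells carried such a sequence.

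Cells led by pericyte genes were then set apart from the rest. In each cell, the UMIs of the 12 pericyte genes (the 4 selecting and the 8 other genes) were set against 10 lists of markers of other cells. They outnumbered each list in 94 sham and 71 tenotomy cells, called marker-led pericytes here; this split was made after the data had been seen and uses the selecting genes again, so it is no independent check of the label. The 81 other sham cells held 39.4% of the selected cells' UMIs, and the 39 other tenotomy cells held 55.1%. In sham these others were led mostly by endothelial markers (31 cells) or mesenchymal progenitor markers (28 cells with 17.7% of the UMIs). In tenotomy they were led by endothelial markers in 20 cells and by monocyte and macrophage markers in 7 cells. Another 5 tenotomy cells were led by myofibre markers and held 29.4% of all UMIs of the selected tenotomy cells.

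**Figure D1:**
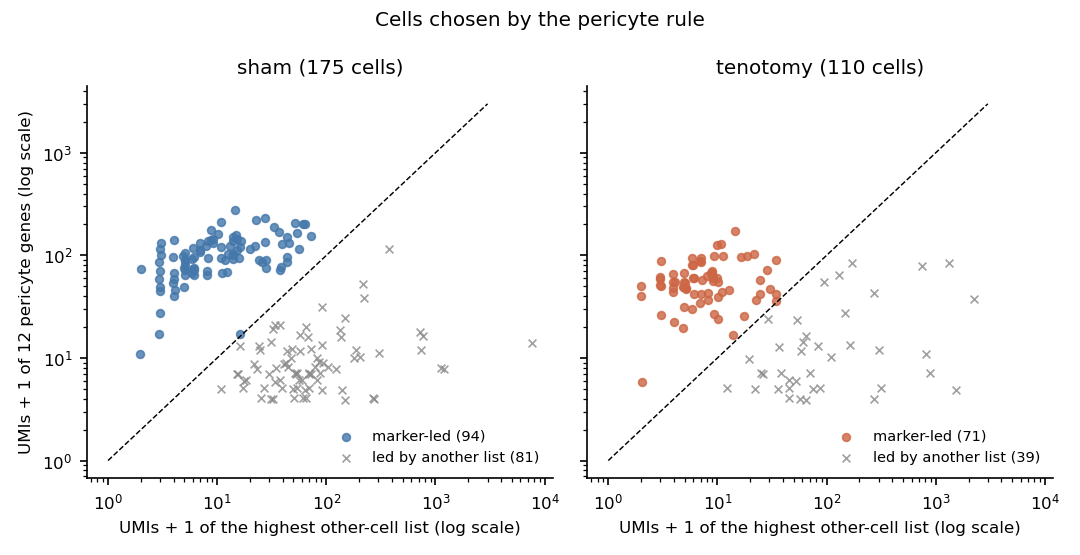
Each point is a selected cell, with the UMIs plus 1 of the 12 pericyte genes on the vertical axis and of the highest list of other cells' markers on the horizontal axis, both on log scales with slight jitter, sham on the left and tenotomy on the right. Filled points are the 94 sham and 71 tenotomy marker-led pericytes, and crosses are the 81 and 39 cells on or below the dashed line of equality, led by another list.

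Genes of those other cells led the comparison of all selected cells. Levels are given as CPM, a gene's UMIs per 1000000 UMIs summed over the cells of a set in a library, and a gene was counted as higher or lower when its CPM differed at least 2-fold and the interval excluded 1. Of 3785 genes measured over all selected cells, 532 (14.1%) were higher and 496 (13.1%) lower in tenotomy. The 12 genes that led the higher side were Tnnt2, Myog, Myh3, Actc1, Myl4, Ttn, Tnni1, Mymk, Neb, Tnnc1, Chrna1 and Mymx, genes of the forming muscle fibre. Tnnt2, a troponin, had 0 UMIs in sham and 595 in tenotomy, and those came from 4 cells. Myog, the myogenic factor of differentiating myoblasts, had 0 and 477 UMIs, the latter in 6 cells. The 12 that led the lower side included the tendon genes Fmod, Tnmd, Chad, Cilp2 and Kera. Of the 352 sham UMIs of Fmod, 1 cell held 69.9%. In marker-led pericytes none of these leading genes reached the limits for a measured gene, and Fmod had 5 and 3 UMIs. The myofibre marker list summed to 123 CPM in sham and 125 in tenotomy there, against 390 and 8691 over all selected cells.

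The results below therefore give marker-led pericytes first, with values over all selected cells beside them for many of the lists and for some genes whose call differed. Marker-led pericytes held 332568 UMIs in sham and 240935 in tenotomy, with a median of 3513 and 2466 UMIs per cell, and the 5 deepest cells held 10.2% and 26.0% of the UMIs. Of 2295 measured genes, 219 (9.54%) were higher and 260 (11.3%) were lower in tenotomy. The median log2 fold of the measured genes was -0.14, and with each fold divided by that median the counts were 303 higher and 195 lower, a share of 60.8% higher against 45.7%. Of the 219 higher genes, 113 were also higher over all selected cells, and of the 260 lower genes, 196 were also lower. Col1a1, Col1a2 and Crispld2 were higher in marker-led pericytes but lower over all selected cells, and Cdkn1c was the reverse; Crispld2 is named after its values were seen.

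Markers of other cells were still present in the marker-led set, endothelial markers most. Lymphocyte markers were at 0 UMIs for all 10 genes in both libraries, with tenocyte markers at 27.1 CPM in sham and 58.1 in tenotomy. Monocyte and macrophage markers summed to 138 and 872 CPM, and 5 of 5 measured markers were higher in tenotomy, among them Lyz2 and C1qa. Endothelial markers summed to 4014 and 1859 CPM, and 5 of 8 measured markers (Aqp1, Cd36, Egfl7, Fabp4 and Flt1) were lower in tenotomy. Mesenchymal progenitor markers summed to 743 and 1216 CPM, and neutrophil markers to 33.1 and 203. Since the lists of other cells were used to split the cells, these values are a description. For some of the genes below that those cells share, a fold is also given for 52 sham and 28 tenotomy marker-led cells. These are the cells left when those with at least 2 UMIs of 8 immune and endothelial genes are removed. Other shared genes are given without that fold.

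Pericytes made up a smaller share of the tenotomy library. The selected cells were 2.26% of sham cells (1.94 to 2.62) and 0.979% of tenotomy cells (0.805 to 1.18), and marker-led pericytes were 1.21% (0.983 to 1.48) and 0.632% (0.494 to 0.796). The ratio for marker-led pericytes, tenotomy over sham, was 0.520 (0.383 to 0.707). The base changed at the same time, as cells with at most 1 Ptprc UMI were 7419 of 7738 in sham but 7200 of 11237 in tenotomy. Over that base the ratio was 0.778 (0.573 to 1.06), an interval that includes 1. Per 100 cells positive for Pecam1 or Cdh5, marker-led pericytes numbered 2.79 in sham muscle and 4.62 after tenotomy, 1.66 times as many (1.21 to 2.27). That base has no limit on pericyte genes, so it can hold cells that the selection rejected for their Pecam1 and Cdh5 UMIs. Among those rejected cells, 322 in sham and 185 in tenotomy held at least 2 kinds of selecting gene, and their part in the ratio was not tested. The direction of the share thus depended on the base, and the digestion and the sort can set it too.

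Pericyte identity genes stayed detectable in tenotomy, and several were lower. The genes that chose the cells are given as a description. Rgs5 (chr1:169655501-169695813, plus strand, GRCm38.p6), a regulator of G-protein signalling and the most abundant selecting gene, was at 18514 CPM in sham and 7703 in tenotomy, 2.40-fold lower (2.28 to 2.53). Its share of a cell's UMIs had a median of 1.83% in sham and 0.940% in tenotomy. Kcnj8, the pore of the channel, was at 1891 and 1058 CPM, while its partner Abcc9 was at 2015 and 1718 and Higd1b at 442 and 440. Among the genes of the marker check, Pdgfrb was at 1004 and 909 CPM and Notch3 at 535 and 660. The chondroitin sulfate proteoglycan Cspg4 (NG2) was at 289 and 307 CPM, and vitronectin, Vtn, at 1882 and 1502. At 2000 UMIs per cell, 80.7% of 83 sham pericytes and 84.8% of 46 tenotomy pericytes held a Pdgfrb UMI, against 0.433% and 0.561% of Ptprc-positive cells.

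Of 30 identity genes, a list that includes the 8 genes of the marker check, 23 were measured in the marker-led set, 3 were lower, none was higher, and the median log2 fold was -0.43. Over the 3523 genes with at least 25 UMIs that entered such list counts, 299 (8.49%) were higher, 287 (8.15%) lower and the median was -0.05. Over all selected cells 5755 genes entered them, of which 646 (11.2%) were higher and 641 (11.1%) lower, with a median of 0.03. Steap4, a metalloreductase, was at 2003 CPM in sham and 867 in tenotomy, 2.31-fold lower (1.97 to 2.71). Heyl, a transcription factor downstream of Notch, was at 165 and 78.9 CPM and 2.10-fold lower (1.23 to 3.74), but 1.16-fold higher in the 37 sham and 34 tenotomy cells with no Myh11 UMI. The adenosine diphosphate ribosyltransferase family gene Art3 was at 1278 and 747 CPM and the transcription factor gene Ebf1 at 1425 and 876, both short of 2-fold. Among all selected cells 8 of 24 identity genes were lower, with a median of -0.71, and these included Art3 (2.14-fold) and Ebf1 (2.03-fold).

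Acta2 and Tagln, contractile genes of smooth muscle and myofibroblasts, were higher in tenotomy pericytes in sum, but not in the typical cell. Acta2 (chr19:34241090-34255590, minus strand), smooth muscle actin, was at 869 CPM in sham and 2856 in tenotomy, 3.29-fold higher (2.86 to 3.78), with UMIs in 57 of 94 and 49 of 71 cells. A single tenotomy cell held 44.6% of its UMIs, and without it the fold was 1.92 (1.64 to 2.24). Tagln (transgelin), an actin-binding protein, was at 499 and 1743 CPM, 3.49-fold higher (2.91 to 4.21), or 2.21 without the cell that held 39.8%. In the 37 sham and 34 tenotomy cells with no Myh11 UMI, the Acta2 fold was 1.12 and the Tagln level was 1.11-fold lower. The median share of Acta2 and Tagln in a cell's UMIs was 0.0768% in sham and 0.0868% in tenotomy, and 29 of 94 and 17 of 71 cells held none.

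Of 26 contractile genes, 22 were measured, of which 8 were higher, 1 was lower and 13 were neither, with a median log2 fold of 0.83. Over all selected cells 8 of 23 were higher and 1 was lower, with a median of 0.35. Tpm2 (tropomyosin) was at 538 CPM in sham and 1175 in tenotomy, 2.18-fold higher (1.8 to 2.65). Actn1 (alpha-actinin) rose from 9 to 28 UMIs, 4.29-fold (1.97 to 10.3). Lmod1 (leiomodin), which nucleates actin in smooth muscle, was at 180 and 62.3 CPM, 2.90-fold lower (1.63 to 5.5). The regulatory light chain Myl9 was at 1287 and 784 CPM and caldesmon, Cald1, at 2577 and 2627. The per-cell share of the whole list had medians of 1.1% in both libraries, so the sums moved through a minority of cells. The highest cell reached 3.13% in sham and 7.68% in tenotomy.

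Genes of the basement membrane, which pericytes build together with the endothelium, took a larger share of the typical marker-led tenotomy cell. Their share of a cell's UMIs had a median of 0.955% in sham and 1.46% in tenotomy. Of 21 genes, 16 were measured, 4 were higher, none was lower and the median log2 fold was 0.52. In the full set of selected cells 1 of 18 (Col18a1) was higher and the median was -0.14, with summed levels of 10852 CPM in sham and 10089 in tenotomy. Col4a1, the main chain of collagen IV, was at 1215 CPM in sham and 2295 in tenotomy, 1.89-fold higher (1.66 to 2.15) and so short of the 2-fold limit. Sparc, a collagen-binding matricellular protein, was at 3491 and 7214 CPM, 2.07-fold higher (1.92 to 2.23), with UMIs in 93 of 94 sham and 70 of 71 tenotomy cells. Over all selected cells Sparc went the other way, 1.19-fold lower. The proteoglycan perlecan, Hspg2, was at 126 and 320 CPM, 2.53-fold higher (1.72 to 3.78), but level over all selected cells at 224 and 233 CPM.

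The 2 collagens of that list that link the membrane to the matrix around it had the highest folds. Col15a1 (chr4:47208161-47313167, plus strand) was at 126 CPM in sham and 581 in tenotomy, 4.60-fold higher (3.24 to 6.66), and its UMIs lay in 26 of 94 and 43 of 71 cells. It is also a mesenchymal progenitor marker used in splitting the cells, and its fold over all selected cells was 1.59. Col18a1, whose C-terminal fragment is endostatin, had 2 UMIs in 2 sham cells and 61 UMIs in 22 tenotomy cells, 42.1 times the sham CPM (11.2 to 355). At 2000 UMIs per cell Col15a1 was seen in 21.7% and 54.3% of pericytes and in 1.30% and 2.21% of Ptprc-positive cells. For Col18a1 these shares were 0% (up to 4.35%) and 28.3% in pericytes, and 0.433% and 0.935% in Ptprc-positive cells.

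Genes of the interstitial matrix, the fibrillar collagens and their partners, were higher in the marker-led set. Of 39 genes 26 were measured, of which 16 were higher, 1 was lower (Timp3) and 9 were neither, with a median log2 fold of 1.20. Over all selected cells, 8 of 37 measured genes were higher, 11 were lower and the median was -0.02. Mesenchymal progenitor markers there summed to 11136 CPM in sham and 2343 in tenotomy, and tenocyte markers to 1920 and 140. The direction of this list thus depended on the cells led by other markers.

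Bgn (biglycan), a small proteoglycan bound to collagen, had 21 UMIs in 16 sham cells and 141 UMIs in 36 tenotomy cells, 9.27-fold higher (5.83 to 15.4). Postn (periostin), a matricellular protein of healing tissue, was at 87.2 CPM in sham and 614 in tenotomy, 7.04-fold higher (4.71 to 10.9), with UMIs in 8 and 32 cells. These shares stood above those of Ptprc-positive cells: at 2000 UMIs Postn was seen in 4.82% and 41.3% of pericytes and in 0% and 9.16% of Ptprc-positive cells, and Bgn in 10.8% and 52.2% against 1.30% and 7.96%. Col3a1, collagen III, was at 256 and 1386 CPM, 5.42-fold higher (4.26 to 6.97), or 3.90 without the tenotomy cell that held 32.3% of it. Its transcripts were also found more widely among Ptprc-positive cells, in 3.90% of them in sham and 22% in tenotomy, against 38.6% and 65.2% of pericytes. In cells with no Myh11 UMI the Col3a1 fold was 1.58.

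Collagen I showed how far the choice of cells reached. Col1a1 was at 144 CPM in sham and 515 in tenotomy in marker-led pericytes, 3.57-fold higher (2.54 to 5.09). Among all selected cells it was at 3319 and 660 CPM, 5.03-fold lower, and 1.11-fold higher there once the single sham cell with most of its UMIs was left out. Col1a2 was at 180 and 569 CPM, 3.15-fold higher (2.31 to 4.34) in marker-led pericytes and 5.37-fold lower over all selected cells. In marker-led cells with no Myh11 UMI the Col1a2 fold was 1.1. Fn1 (fibronectin) was at 48.1 and 220 CPM, 4.57-fold higher (2.57 to 8.57), but at 291.5 and 276 CPM over all selected cells, 1.06-fold lower with an interval that included 1. Bgn was 1.75-fold higher over all selected cells, short of the call. Tnc (tenascin C) had 1 and 21 UMIs, too few to be counted.

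Inhibitors of metalloproteinases, which protect matrix from digestion, differed in direction. Timp1 (chrX:20870166-20874735, plus strand), the inducible form, had 0 UMIs in sham and 66 in 19 tenotomy cells, at least 30.4-fold higher against a floor of 3 counts per library. At 2000 UMIs it was seen in 26.1% of tenotomy pericytes and in 11.3% of the Ptprc-positive cells of that library. Timp3, which stays bound to the matrix, was at 2357 and 768 CPM, 3.07-fold lower (2.61 to 3.62), and fell from 100% to 65.2% of cells at 2000 UMIs per cell. Timp4 had 64 UMIs in 23 sham cells and 0 in tenotomy, at least 15.5-fold lower. Timp4 was seen in 16.9% of sham pericytes at 2000 UMIs per cell, against 7.79% of sham Ptprc-positive cells, and only 4 sham UMIs were left in the cells poor in immune and endothelial transcripts.

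**Figure D2:**
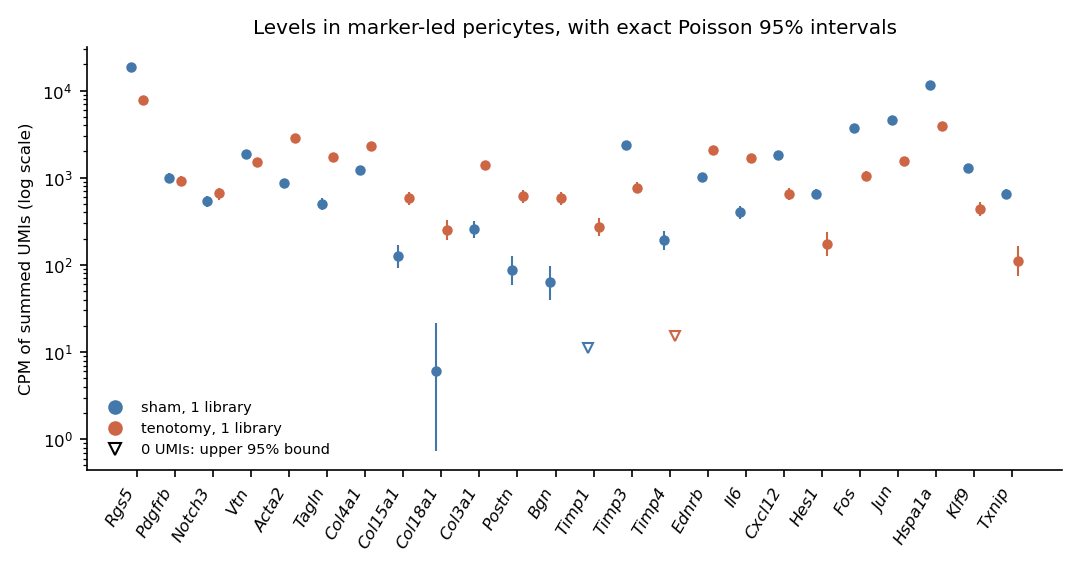
CPM of 24 genes in marker-led pericytes on a log axis, sham and tenotomy side by side, with exact Poisson 95% intervals of the 1 library in each group; open triangles mark the upper bound where a library held 0 UMIs (Timp1 in sham, Timp4 in tenotomy). The interval pairs of Pdgfrb and Notch3 overlap, those of Col15a1, Bgn and Il6 lie apart with tenotomy higher, and those of Timp3, Cxcl12, Fos and Txnip lie apart with sham higher.

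Genes that respond to transforming growth factor beta and bone morphogenetic proteins had no common direction across the sets of cells. Of 24, 18 were measured in marker-led pericytes, 4 were higher (Ccn2, Pmepa1, Tgfb1 and Tgfb2) and 1 was lower. In the full set of selected cells 3 of 22 were higher and 3 lower (13.6% each way), near the 11.2% and 11.1% over all genes there. The median log2 fold was -0.19, and Ccn2 was among the lower genes. Pmepa1, a feedback inhibitor induced by transforming growth factor beta, was at 81.2 CPM in sham and 278 in tenotomy, 3.43-fold higher (2.16 to 5.57). Id1, a target of bone morphogenetic proteins, was at 162 and 58.1 CPM, 2.79-fold lower (1.53 to 5.45), while its relative Id3 was at 610 and 855. Over all selected cells Id1 was 1.19-fold lower, short of the call. Endothelial cells also express Id1, and in the cells poor in immune and endothelial transcripts its level was 2.75-fold lower.

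Signals exchanged between pericytes and endothelium were lower where they moved. Of 31 genes 13 were measured, 4 were lower (Cxcl12, Hes1, Heyl and Jag1), none was higher and the median log2 fold was -0.37. Hes1, a transcriptional repressor induced by Notch, was at 656 CPM in sham and 174 in tenotomy, 3.76-fold lower (2.69 to 5.36), and the share of cells with a UMI at 2000 UMIs per cell was 57.8% and 26.1%. Jag1, a Notch ligand, was at 171 and 70.6 CPM, 2.43-fold lower (1.39 to 4.45). Cxcl12, the chemokine that retains cells bearing Cxcr4, was at 1801 and 647 CPM, 2.78-fold lower (2.33 to 3.34), and was seen in 89.2% and 67.4% of cells at 2000 UMIs. With cells rich in immune and endothelial transcripts left out, Hes1 was 2.52-fold lower, Jag1 3.00-fold and Cxcl12 2.52-fold. The receptor Notch3 was not lower, at 535 and 660 CPM. Pdgfa was at 183 and 224 CPM, while Vegfa, with 9 and 4 UMIs, and Angpt1, with 0 and 1, were too sparse to compare.

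Among the genes of vascular tone, Ednrb was the only higher one. Of 43 genes 22 were measured, 1 was higher, 2 were lower and the median log2 fold was -0.51. These shares, 4.55% and 9.09%, were not above or were near the 8.49% and 8.15% over all genes that entered such counts. Ednrb, the endothelin B receptor, was at 1010 CPM in sham and 2088 in tenotomy, 2.07-fold higher (1.8 to 2.38), and ranged from 1.60 to 2.66 over 13 alternatives. Among all selected cells Ednrb was 1.69-fold higher, short of the call, and 7 of 27 tone genes were lower. Ednra, the A receptor, was at 99.2 and 141 CPM with an interval that included 1. The nitric oxide receptor subunits were short of 2-fold, with Gucy1a1 at 719 and 394 CPM and Gucy1b1 at 716 and 498, though Gucy1a1 was 2.41-fold lower over all selected cells.

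Il6, the gene of the cytokine interleukin 6, was found in a minority of sham pericytes and in most tenotomy pericytes. It was at 403 CPM in sham and 1668 in tenotomy, 4.14-fold higher (3.40 to 5.07), and its UMIs were in 17 of 94 and 44 of 71 cells. At 2000 UMIs per cell a UMI was found in 15.7% (8.61 to 25.3) of sham pericytes and 69.6% (54.2 to 82.3) of tenotomy pericytes, against 3.90% and 2.92% of Ptprc-positive cells. The tenotomy level was 1350% of the mean over all cells of that library. Over 13 alternatives the fold ranged from 2.22 to 17.6, the lowest of these in the cells poor in immune and endothelial transcripts.

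The stretch before the Il6 start site is shown for the motif in capitals, which the product of the AP-1 genes Fos and Jun binds. Whether the levels of these genes and of Il6 are linked was not tested. The 250 bases before the start are from RefSeq on GRCm38.p6, chr5:30012864-30013113, plus strand, with an AP-1 site (TGACTCA or TGAGTCA, each the reverse complement of the other, so that both strands were searched) beginning 249 bases before the start:
Il6: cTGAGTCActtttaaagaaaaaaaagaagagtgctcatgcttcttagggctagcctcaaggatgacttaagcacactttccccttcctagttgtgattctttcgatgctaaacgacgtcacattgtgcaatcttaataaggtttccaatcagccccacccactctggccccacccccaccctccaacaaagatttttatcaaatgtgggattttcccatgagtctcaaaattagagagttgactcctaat
The motif occurred in 4.47% of 22862 such windows, in 3 of 23 windows of the chemokine, cytokine and adhesion list (Cxcl10, Il6 and Lif) and in 0 of 23 of the immediate early and stress list. A match of letters is a description and shows no binding.

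Of the 37 chemokine, cytokine and adhesion genes, 18 were measured, of which 5 were higher (Ccl19, Ccl7, Cxcl2, Il11 and Il6) and 1, Cxcl12, was lower. In the full set of selected cells 6 of 28 were higher and 4 lower. Cxcl1, a neutrophil attractant, was at 1918 CPM in sham and 3457 in tenotomy, 1.8-fold higher (1.62 to 2.0), and Ccl2, a monocyte attractant, was at 1524 and 1507. Over 13 alternatives the Ccl2 ratio of tenotomy over sham ranged from 0.436, in cells with no Myh11 UMI, to 2.06 after thinning. Cxcl2 had 8 UMIs in 5 sham cells and 105 in 22 tenotomy cells, 18.1-fold higher (8.86 to 43.1). Ptprc-positive cells carried Cxcl2 more often, in 69.3% of tenotomy cells at 2000 UMIs against 19.6% of pericytes, and the fold was 5.76 in the cells poor in immune and endothelial transcripts. Il11 had 0 and 52 UMIs, but these lay in 6 cells, and the Ccl7 fold of 2.23 fell to 1.47 without 1 cell.

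By number, though not by share, the list with most lower genes was that of immediate early and stress genes, which many cell types switch on within minutes of stimulation and during tissue dissociation. They took a median of 6.49% of a sham cell's UMIs and 3.79% of a tenotomy cell's. Of 32 genes 30 were measured, 13 were lower, none was higher and the median log2 fold was -0.73. Over all selected cells 20 of 32 were lower and 1, Egr3, was higher. Fos was at 3735 CPM in sham and 1042 in tenotomy, 3.58-fold lower (3.13 to 4.12). Jun was at 4534 and 1544 CPM, 2.94-fold lower (2.62 to 3.30), and its family member Junb at 4619 and 2777, short of 2-fold but 2.29-fold lower over all selected cells. Btg2, an antiproliferative gene, was at 3232 and 1067 CPM, 3.03-fold lower (2.64 to 3.49), and was seen in 96.4% and 58.7% of pericytes at 2000 UMIs per cell. Cebpb, which is also inducible, was level at 2309 and 2337 CPM.

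The heat shock genes Hspa1a and Hspa1b held the highest levels of that list. Hspa1a was at 11712 CPM in sham and 3955 in tenotomy, 2.96-fold lower (2.76 to 3.18), and Hspa1b at 8007 and 3453, 2.32-fold lower (2.14 to 2.51). They are near-identical copies whose reads the counting may split or drop, so the 2 values are uncertain and are best read together. Their promoters are shown because the pair also shares the sequence before the start. Each window is the 250 bases before the start from RefSeq on GRCm38.p6, minus strand, at chr17:34972157-34972406 for Hspa1a and chr17:34959239-34959488 for Hspa1b. The capitals mark the only match to GAANNTTC, the pattern used for a heat shock element (a palindrome, hence read on both strands). Other arrangements of the element were not searched. The first base of the match lies 104 bases before the start in each:
Hspa1a: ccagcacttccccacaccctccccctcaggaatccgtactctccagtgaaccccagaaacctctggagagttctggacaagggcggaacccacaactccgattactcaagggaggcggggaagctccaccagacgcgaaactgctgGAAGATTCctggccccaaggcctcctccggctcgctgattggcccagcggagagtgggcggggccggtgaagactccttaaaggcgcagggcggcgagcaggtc
Hspa1b: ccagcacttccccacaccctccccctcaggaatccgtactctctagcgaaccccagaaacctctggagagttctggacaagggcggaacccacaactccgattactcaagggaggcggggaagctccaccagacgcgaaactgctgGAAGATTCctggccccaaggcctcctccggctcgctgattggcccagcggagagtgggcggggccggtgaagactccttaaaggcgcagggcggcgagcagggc
The windows differ at 3 of 250 positions. The motif occurred in 6.97% of all 22862 windows and in 5 of the 23 windows of the immediate early and stress list (Fosl2, Hspa1a, Hspa1b, Hspb1 and Jun), and here too a match shows no binding.

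Of 17 glucocorticoid-responsive genes 14 were measured, of which 6 were lower, none was higher and 8 were neither, with a median log2 fold of -0.90. Among all selected cells 8 of 15 were lower and 2, Angptl4 and Cdkn1c, were higher. Txnip, an inhibitor of thioredoxin, was at 646 CPM in sham and 112 in tenotomy, 5.77-fold lower (3.86 to 8.96), with UMIs in 62 of 94 and 13 of 71 cells. Klf9, a direct target of the glucocorticoid receptor, was at 1302 and 440 CPM, 2.96-fold lower (2.39 to 3.7), and was seen in 90.4% and 41.3% of cells at 2000 UMIs. Errfi1, a brake on epidermal growth factor receptors, was at 1621 and 647 CPM, 2.50-fold lower (2.09 to 3.01). Zbtb16 had 39 and 3 UMIs, a ratio of 9.42 in favour of sham (2.99 to 47.6).

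Interferon genes did not move as 1 block. Ifitm3, an antiviral membrane protein, was at 1741 CPM in sham and 3636 in tenotomy, 2.09-fold higher (1.88 to 2.32), with UMIs in 90 of 94 and 68 of 71 cells. It was 1 of 2 type I interferon genes that were higher among 6 measured of 22. In the full set of selected cells none of 12 was higher, Ifit1 and Isg15 were lower, and Ifitm3 was 1.35-fold higher, short of the call. Of 22 genes of the interferon gamma response and major histocompatibility complex class I, 10 were measured, 5 were lower and none was higher. Irf1, their transcription factor, was at 289 and 112 CPM, 2.58-fold lower (1.67 to 4.11). The guanosine triphosphatase Iigp1 was at 454 and 120 CPM, 3.77-fold lower (2.52 to 5.82), with 30.5% of sham UMIs in 1 cell, and was 2.26-fold higher in the cells with no Myh11 UMI. B2m, the light chain of class I molecules, was at 671 and 560 CPM.

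Genes that fold, modify and export secreted proteins were higher where they moved. Of 30 secretory pathway genes 27 were measured, 9 were higher, none was lower and the median log2 fold was 0.81, while the per-cell share had medians of 0.453% in sham and 0.706% in tenotomy. Hsp90b1, the chaperone of the endoplasmic reticulum, was at 292 and 706 CPM, 2.42-fold higher (1.87 to 3.14). P4hb, a subunit of the collagen-hydroxylating enzyme, was at 135 and 303 CPM, 2.24-fold higher (1.52 to 3.32), and Ddost, a subunit of the glycosylating complex, had 15 and 32 UMIs, 2.94-fold higher (1.55 to 5.85). Over all selected cells 4 of 28 were higher (14.3%, against 11.2% over all genes there), P4hb and Ddost not among them.

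Of 24 glycolysis and hypoxia genes 13 were measured, and 4 were higher and none lower. Pgk1, a glycolytic kinase, was at 72.2 CPM in sham and 249 in tenotomy, 3.45-fold higher (2.12 to 5.79), and Hif1a at 57.1 and 133, 2.32-fold higher (1.28 to 4.34). The lactate exporter Slc16a3 was 2.01-fold higher (1.16 to 3.54), but 1.36-fold lower in the cells poor in immune and endothelial transcripts. Of 36 nuclear genes of oxidative phosphorylation 35 were measured, 4 were higher and none lower. The higher ones were 11.4%, near the 8.49% over all genes that entered such counts. The 13 mitochondrially encoded genes had a median log2 fold of -0.09.

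Cell cycle genes lay mostly under the limit. Of 36 such genes 3 reached 25 UMIs, and H2afz and Stmn1 were higher; over all selected cells 7 of 10 were higher, and H2afz was 1.36-fold higher, short of the call. H2afz, a histone variant, was at 457 CPM in sham and 921 in tenotomy, 2.02-fold higher (1.63 to 2.49). Stmn1 had 5 and 26 UMIs, and 13 of the latter lay outside its top cell. Mki67, the proliferation marker, had 0 UMIs in sham and 7 in 2 tenotomy cells, too few to be counted. Of 25 target genes of the mechanosensitive factors YAP and TEAD 15 were measured, 1 (Ccn2) was higher and 4 were lower. Among the latter, Ccn1 was at 349 and 149 CPM, 2.33-fold lower (1.59 to 3.49), and Dlc1 at 764 and 357, 2.14-fold lower (1.67 to 2.77). With each cell weighted equally, Ccn1 was 1.42-fold and Dlc1 1.81-fold lower, both short of 2-fold. Over all selected cells 2 of 19 genes of this list were higher (10.5%, against 11.2% over all genes there). Another 4 were lower (21.1%, against 11.1%), Ccn2 among them.

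**Figure D3:**
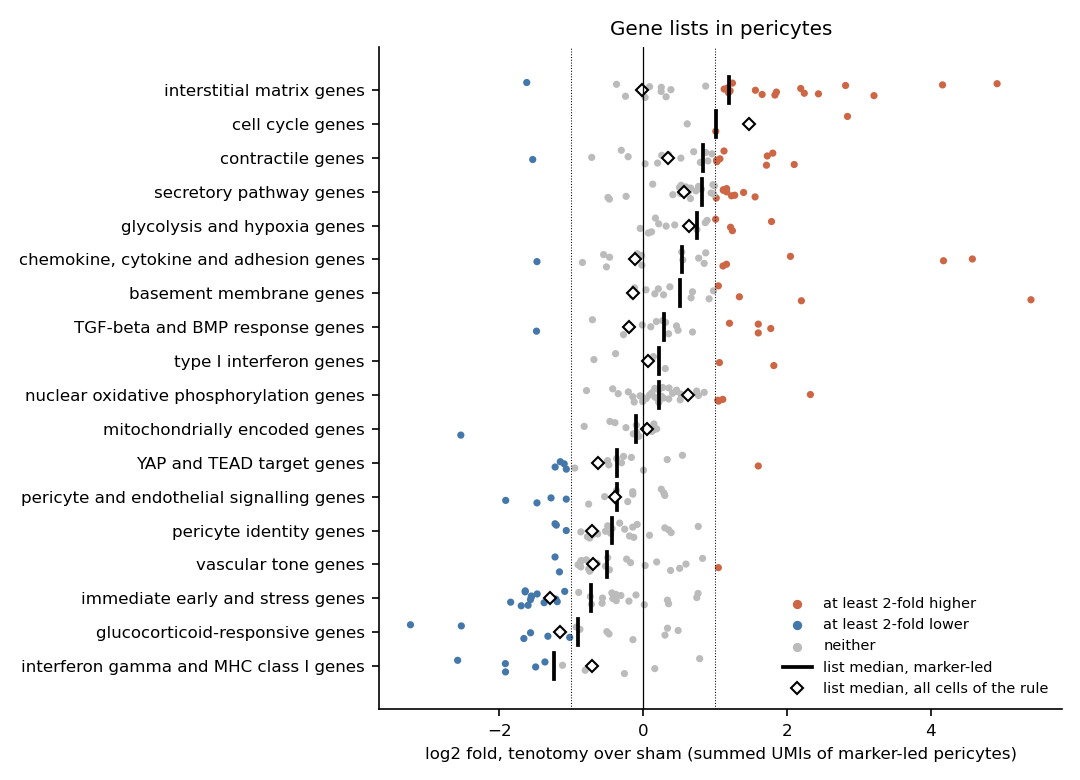
Each point is a measured gene of the list named on the left, placed by its log2 fold of tenotomy over sham in marker-led pericytes; bars are the list medians, open diamonds the medians over all selected cells, and dotted lines mark 2-fold. The interstitial matrix bar lies at 1.20 while its diamond lies at -0.02, and the immediate early and stress list lies at -0.73 and -1.29.

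The genes that led the whole marker-led comparison were taken in order of the interval bound that lay closest to equal levels. On the higher side stood Timp1, Il11, S100a4, Spp1, Inhba, Col18a1, Il1b, Slc7a11, Wfdc17, Cxcl2, Stc1 and Hmox1. Several rested on few cells. The 32 tenotomy UMIs of Inhba, an activin subunit, lay in 4 cells, and the 30 of the cytokine Il1b in 3. Of the Inhba UMIs 1 cell held 81.25%, and 6 UMIs lay outside it. Of the tenotomy UMIs of Slc7a11 1 cell held 51.9%, and 13 lay outside it. S100a4 had 1 UMI in sham and 61 in 13 tenotomy cells, of which 1 cell held 47.5%. Spp1 (osteopontin) had 0 and 39 UMIs, the latter in 13 cells, of which 1 cell held 43.6%. Stc1 (stanniocalcin), a secreted glycoprotein, had 2 and 44 UMIs, the latter in 15 cells, at 2292% of the mean over all tenotomy cells.

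Other leading genes were those of macrophages too. Hmox1 (haem oxygenase) had 11 UMIs in 8 sham cells and 104 in 25 tenotomy cells, 13.1-fold higher (7.0 to 26.9). Wfdc17 had 1 UMI in sham and 39 in 27 tenotomy cells. At 2000 UMIs per cell S100a4 was seen in 17.4% of tenotomy pericytes but 73.5% of Ptprc-positive cells, Hmox1 in 32.6% and 79.1%, Wfdc17 in 15.2% and 68.2% and Spp1 in 15.2% and 41.8%. The tenotomy level of S100a4 in pericytes was 22.8% of the mean over that whole library, that of Hmox1 23.8% and that of Wfdc17 27.4%. In the cells poor in immune and endothelial transcripts Hmox1 was 5.60-fold higher. Monocyte and macrophage markers summed to 138 CPM in sham pericytes and 872 in tenotomy pericytes, and their part in these folds was not tested.

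On the lower side stood Timp4, Txnip, Pacsin3, Fos, Acss1, Zbtb16, Snai1, Hspa1a, Dapk2, Hes1, Atf3 and Cavin2. Pacsin3, a membrane-bending adaptor that binds TRPV4 channels, had 108 UMIs in 56 sham cells and 13 in 13 tenotomy cells, 6.02-fold lower (3.38 to 11.7). Its sham level was 2298% of the mean over all sham cells. Acss1, a mitochondrial acetyl-CoA synthetase, had 26 UMIs in 22 sham cells and 1 in tenotomy. Snai1, a transcriptional repressor, had 64 UMIs in 33 cells and 8 in 6, 5.80-fold lower (2.77 to 14). Cavin2, a coat protein of caveolae, was at 1098 and 324 CPM, 3.39-fold lower (2.65 to 4.39), and 2.53-fold lower in the cells poor in immune and endothelial transcripts.

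**Figure D4:**
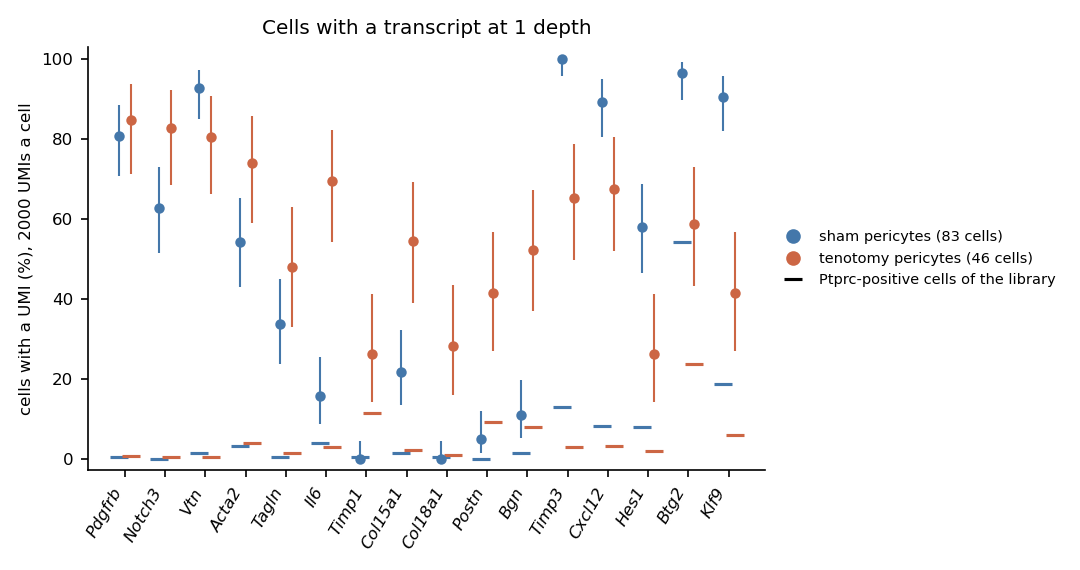
Percentage of marker-led pericytes with at least 1 UMI of each gene after thinning every cell to 2000 UMIs (83 sham and 46 tenotomy cells), with exact Clopper-Pearson 95% intervals; short dashes give the share in Ptprc-positive cells of the same library. Il6 (15.7% and 69.6%), Bgn, Postn and Col18a1 were seen in more tenotomy cells, Timp3, Btg2, Klf9, Hes1 and Cxcl12 in fewer, and Pdgfrb in a like share (80.7% and 84.8%).

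Thinning left out 11 sham and 25 tenotomy pericytes with fewer than 2000 UMIs. Without thinning Il6 was found in 18.1% of 94 sham and 62.0% of 71 tenotomy pericytes, Postn in 8.51% and 45.1%, Bgn in 17.0% and 50.7%, Hes1 in 67.0% and 32.4%, Klf9 in 89 and 45 cells and Timp3 in 96.8% and 84.5%. Of the plotted genes, Tagln and Pdgfrb changed direction, Tagln with 33.7% and 47.8% of thinned cells but 42.6% and 42.3% of all, and Pdgfrb with 89.4% and 88.7% of all.

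The same folds were set beside those of the stromal cells most like pericytes: 30 sham and 30 tenotomy cells with at least 3 Myh11 UMIs, and 1242 and 552 cells with at least 3 Pdgfra UMIs that did not reach the pericyte marker limit. With 1 library in each group the difference between cell types could not be tested. The fall of Fos was present in each, 3.45-fold in Myh11-positive and 7.70-fold in Pdgfra-positive cells, and so was that of Timp3 (2.81-fold and 8.04-fold) and Klf9 (2.43-fold and 2.67-fold). Col3a1 was higher in each, at 455 and 2636 CPM in Myh11-positive cells.

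Other genes had values that lay apart. Acta2 was at 7416 CPM in sham and 7360 in tenotomy in Myh11-positive cells, and the pericyte levels of 869 and 2856 stayed below both. For Il6 the level was 1027 and 1718 CPM in Myh11-positive cells, 1.67-fold higher (1.38 to 2.03), and at 222 and 198 in Pdgfra-positive cells, against 403 and 1668 in pericytes. Col15a1 was 5.82-fold higher in Myh11-positive cells but 3.64-fold lower in Pdgfra-positive cells, at 783 and 215 CPM. Postn was at 418 and 709 CPM in Myh11-positive cells. The level of Cxcl12 in Pdgfra-positive cells was 227 and 200 CPM, against 1801 and 647 in pericytes, and Ednrb was at 0.435 and 4.01 CPM against 1010 and 2088. In Myh11-positive cells Cxcl12 was also at least 2-fold lower in tenotomy, so its fall was not particular to pericytes. Ednrb was not counted as higher in Myh11-positive cells.

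**Figure D5:**
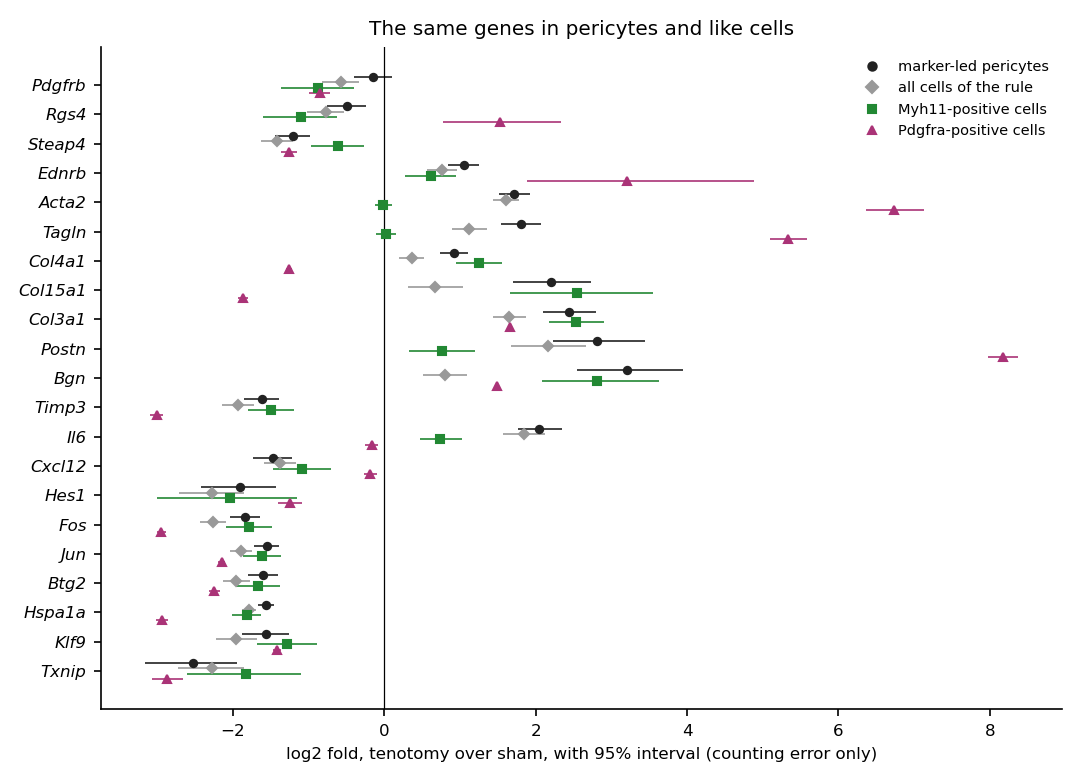
Log2 fold of tenotomy over sham with 95% intervals of the counting error for 21 genes in marker-led pericytes, all selected cells, Myh11-positive and Pdgfra-positive cells. The 4 sets lie on the same side of 0 for Fos, Jun, Btg2, Hspa1a, Klf9 and Timp3, and on both sides for Il6 and Col15a1.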

How the data were processed

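The authors deposited raw counts, UMIs per gene and cell barcode, for 1 library in each group. Per the submitters' processing notes they used Cell Ranger 4.0.0 and mm10; their annotation is not stated. Gene coordinates are from GENCODE and promoters from RefSeq, both on GRCm38.p6. Members and gene lists were chosen with earlier results of these data known, and the marker-led split, the removal of the 5 deepest cells and that of each gene's top cell after seeing the data. UMIs were summed over cells of a set and library (Python 3.11.15, NumPy 2.4.6, pandas 2.3.3). A gene was measured with at least 50 CPM and 25 UMIs in the higher library and at least 10% of that library's mean; list counts needed 25 UMIs over both. Folds carry exact conditional binomial intervals, shares Clopper-Pearson intervals (SciPy 1.17.1); the fold calculation was tested on simulated data. Doublets were scored with scrublet (scanpy 1.11.5) and kept, and the highest 5% were removed as an alternative. Named genes were the 12 higher and 12 lower ranked by the interval bound nearest to 1, members of the lists, and a set list of genes (Crispld2 is the exception). The 9 genes of the selection were left out of all counts. Coverage of 332568 and 240935 UMIs in marker-led pericytes sets the precision, given as intervals. Some genes of the lists are counted but not reported by name here.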

Additional observations from a re-analysis of the deposited data

How the results depend on the processing

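No paired analysis was possible because each group is 1 pooled library, so the groups share fewer than 2 replicate numbers; for the same reason no replicate could be left out. Counts of higher genes over all selected cells (532) became 280 with a marker sum of at least 5, 193 after thinning to 2000 UMIs, 77 without cells holding 2 UMIs of 8 immune and endothelial genes, 302 without the 5 deepest cells and 219 in marker-led cells. Counts of lower genes (496) became 330 after thinning, 161 without such cells, 302 without the deepest, 260 in marker-led cells and 288 as means over cells. In marker-led cells, higher genes (219) became 56 with Myh11 at 0, 113 after thinning, 81 without immune and endothelial transcripts and 133 without the deepest cells. Lower genes (260) became 67 with Myh11 at 0, 165 at no more than 5% mitochondrial UMIs, 127 without immune and endothelial transcripts and 172 without the deepest cells. Fewer genes were measured in each of these but the means over cells. After thinning, the cells were selected again on the thinned UMIs, which gave 229 sham and 112 tenotomy cells, and 133 and 67 marker-led cells. The thinned values in this section thus change the cells as well as the depth. The thinned shares of cells with a UMI above keep the members selected at full depth. The share ratio, 0.433 for all selected cells, was 0.340 after thinning and 0.648 over cells with at most 1 Ptprc UMI; for marker-led cells, 0.520, it was 0.350, 0.371 without immune and endothelial transcripts and 0.778.

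Reversals over all selected cells concerned Col1a1, whose ratio of 0.199 became 1.33 with 2 kinds of marker gene, 2.43 thinned, 1.86 without the 8 genes, 2.39 without the deepest cells, 3.57 in marker-led cells and 1.11 without its top cell. For Col1a2 (0.186) these were 1.30, 2.34, 1.38, 2.42, 3.15 and 1.08. Mgp became 1.16 thinned, 1.33 without the 8 genes and 1.1 in marker-led cells, Tagln 0.993 with Myh11 at 0, and Timp4 1.60 and Slc16a3 0.748 without the 8 genes. The identity list's median log2 fold became 0.083 without the 8 genes and 0.068 as a mean over cells. In marker-led cells Heyl became 1.16, Tagln 0.905 and Iigp1 2.26 with Myh11 at 0, and Timp4 1.5 and Slc16a3 0.737 without the 8 genes. For Timp4 the tenotomy value there is the floor of 3 counts; the cause of the others was not tested. Of the marker-led values of single genes, 1166 moved by less than their interval, 264 moved more and 5 reversed.

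With 1 library in each group, nothing here measures the spread between animals. Depth limits genes under about 25 UMIs, and the 12 genes at the top of each ranking include several that rest on a handful of cells.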
